A study of Mus musculus with 2 samples.

Results

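The genes E2f1, E2f2, E2f3, E2f4, E2f5, E2f6, E2f7, E2f8, Rb1 and Rbl1 were followed through the single-cell RNA-seq of mouse ileal enteroids. These 10 genes were taken as a list by name from the 16665 genes counted in the 2 libraries. No filter on their values was applied, but earlier results of these data were known when the list was chosen. One library carried the label WT and came from enteroids described as treated with ethanol. The other carried the label KO and came from enteroids treated for 3 days with 1 µM 4-hydroxytamoxifen (4-OHT). Both were of the C57Bl6/129sv strain and were grown from crypts of 4-month-old mice. According to the methods of the study, both carried floxed Taf4 alleles (Taf4 lox/lox), the KO line also carried CreERT2 under the villin promoter, which is active in the intestinal epithelium (Taf4IEC), and the control was given 4-OHT as well. The label of the control and these methods therefore differ on its treatment. Live cells were sorted after the buds of the enteroids had formed and been exposed to the drug, and were captured for 3' end counting with unique molecular identifiers (UMIs).

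E2f factors bind the promoters of genes needed for DNA replication and cell division. E2f1, E2f2 and E2f3 activate these genes when the pocket proteins Rb1, Rbl1 and Rbl2, which hold E2f factors inactive, are phosphorylated by cyclin-dependent kinases. E2f4 and E2f5 work mostly as repressors with Rbl1 and Rbl2, E2f6 represses without a pocket protein, and E2f7 and E2f8 are atypical repressors that bind DNA without a Tfdp partner and curb E2f activity late in S phase. In the intestinal crypt, cycling stem and progenitor cells use this circuit, and cells leave the cycle as they move to the villus.

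Several members are themselves known to be under E2f control, so the bases before their start sites are shown with the E2f-type letters they hold. RefSeq promoter windows of 250 bases before to 50 bases after a start site (GRCm38.p6, the assembly of mm10) were given for 7 of the 10 members. The motifs TTTCCCGC, TTTCGCGC, TTTGCCGC and TTTGGCGC were searched on both strands. A match was found for 4 of these 7 genes, Rbl1, E2f7, E2f3 and E2f2, against 2.61% of 27025 genes (704 genes) with a window. The windows given for E2f1, E2f8 and E2f6, and a second window each for E2f2 and E2f3, had their start site within the annotated span of the gene, so they belong to alternative starts, and none of them held the motifs. Among 20 E2f target genes, 9 of the 17 with a window held a match. The 250 bases before the start of Rbl1 (chr2:157204535-157204784, minus strand), E2f7 (chr10:110745189-110745438, plus strand) and E2f3 (chr13:29986064-29986313, minus strand) are given 5′ to 3′ with the match in capitals, followed by 30 bases that hold the match of E2f2 after its start (chr4:136172294-136172323, plus strand).
Rbl1: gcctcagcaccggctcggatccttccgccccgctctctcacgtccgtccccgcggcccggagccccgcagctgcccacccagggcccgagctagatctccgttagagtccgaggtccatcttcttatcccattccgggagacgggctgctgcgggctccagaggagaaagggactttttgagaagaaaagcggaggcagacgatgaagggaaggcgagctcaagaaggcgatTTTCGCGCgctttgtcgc
E2f7: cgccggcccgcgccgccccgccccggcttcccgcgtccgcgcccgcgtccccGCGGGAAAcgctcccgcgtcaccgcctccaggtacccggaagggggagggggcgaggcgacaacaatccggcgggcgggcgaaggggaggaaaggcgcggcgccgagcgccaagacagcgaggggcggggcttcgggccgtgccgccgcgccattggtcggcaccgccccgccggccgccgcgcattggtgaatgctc
E2f3: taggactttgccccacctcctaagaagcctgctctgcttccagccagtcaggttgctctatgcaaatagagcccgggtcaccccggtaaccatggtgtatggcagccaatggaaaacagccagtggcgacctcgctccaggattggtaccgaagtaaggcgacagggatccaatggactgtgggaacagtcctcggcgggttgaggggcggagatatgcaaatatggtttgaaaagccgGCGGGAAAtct
E2f2: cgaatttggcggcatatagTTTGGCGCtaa
The match of Rbl1 began 18 bases before the start (position -18) and read in the direction of the gene. Those of E2f7, at -198, and E2f3, at -11, read on the opposite strand. The match of E2f2 began 39 bases after the start. A match describes these letters only and is not a measured binding site.

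The libraries differed in depth and in cell composition. The WT-labelled library held 2563 cells with 39947009 UMIs and a median of 16749 UMIs per cell, and the KO-labelled library 1811 cells with 24990128 UMIs and a median of 2254. Cells under 2000 UMIs made up 17.3% and 49.1%. The libraries shared 2 cell barcodes. Taf4, the targeted gene, had 278 UMIs in the WT-labelled and 236 in the KO-labelled library, a level of 0.0696 and 0.0944 per 10000 UMIs. It was not lower in the library labelled KO, and counts of this kind do not tell a recombined transcript from an intact one, so groups are named here by their labels. Epcam, which marks epithelial cells, was at 12.6 and 11.6 UMIs per 10000, while the 6 counted of 10 markers of blood, vessel and stromal cells summed to 0.0095 and 0.0312. With 1 library per label there is no replicate and no test. Intervals in square brackets are 95% intervals for counting error only (exact Poisson for levels, conditional binomial for ratios, Clopper-Pearson for shares), and a ratio compares 2 libraries, not 2 genotypes. The median gene, among the 10002 that had 200 UMIs or more in all, was at a log2 ratio of KO-labelled to WT-labelled level of 0.16, so a gene at a log2 ratio of 0 lay below the median gene. Fewer cells of a type and less RNA per cell cannot be told apart in levels summed over all cells.

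Summed over all cells, the atypical repressors and the activator E2f1 were lower in the KO-labelled library, E2f3 to E2f6 differed little, and Rb1 was higher. Of the 10 members, 2 were lower by 2-fold or more (E2f8 and E2f7), where 3.48% of all genes tested were lower by that much. None was higher by 2-fold or more, where 5.52% of all genes were. E2f7 had fewer than the 200 UMIs in all that genes of the background needed. The median log2 ratio of the 10 members was -0.37. Of the 10, 9 lay below the median gene, 7 of them with their whole interval. How many of all genes had their whole interval below the median gene was not counted, so the 7 stand without a background.

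**Figure D1:**
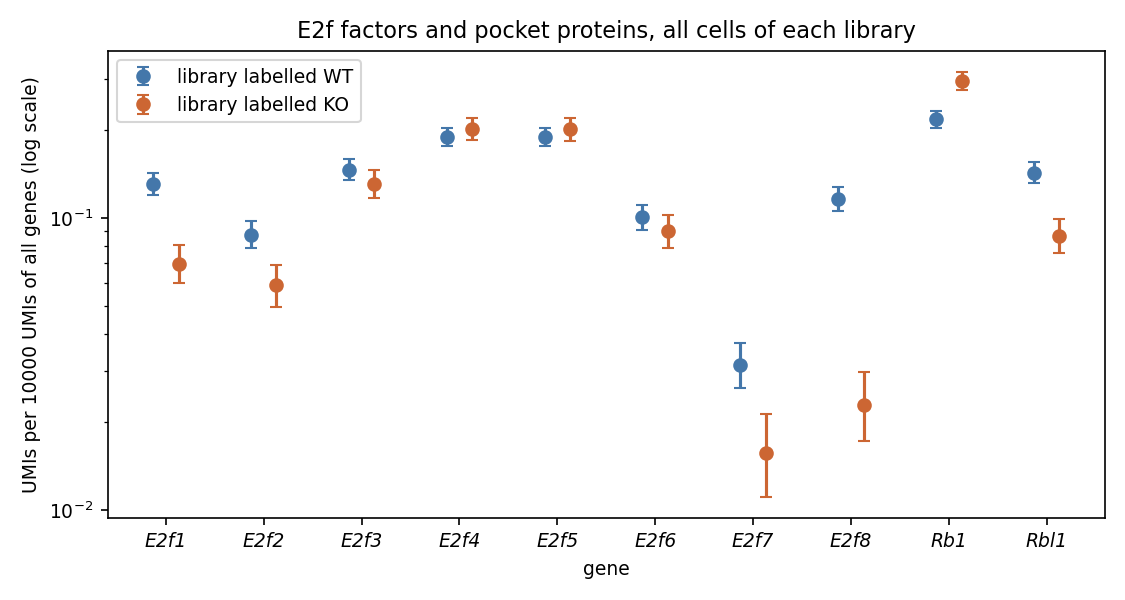
Level of each gene in UMIs per 10000 UMIs of all genes (log scale) over all cells of the WT-labelled (blue) and KO-labelled (orange) library; bars are exact Poisson 95% intervals. E2f8 stood farthest apart, at 0.116 and 0.0228, and Rb1 was the gene whose interval lay above that of the WT-labelled library, at 0.295 against 0.218.

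Among the activators, E2f1, the member most tied to entry into S phase, had 523 UMIs in the WT-labelled and 174 in the KO-labelled library. Its level was 0.131 [0.120 to 0.143] and 0.0696 [0.0597 to 0.0808] per 10000, a log2 ratio of -0.91 [-1.17 to -0.66]. E2f2 had 350 and 147 UMIs, a level of 0.0876 and 0.0588 and a log2 ratio of -0.57 [-0.86 to -0.29]. The intervals of both levels did not overlap between the libraries, and both genes stayed lower in the KO-labelled library under all 7 other ways of counting (other totals, deeper cells, thinned cells, cells weighted equally, doublets removed). The size for E2f1 did not hold with thinned cells, where its log2 ratio was -0.21 at 2000 UMIs and -2.20 at 500 UMIs. Thinned values rested on few cells. In a separate random draw at 2000 UMIs, E2f1 was seen in 50 and 10 cells and E2f2 in 39 and 7. E2f3 had 585 and 327 UMIs, at 0.146 and 0.131 per 10000, and its log2 ratio of -0.16 [-0.36 to 0.04] had an interval that held 0. The 3 activators together had 1458 and 648 UMIs, for a log2 ratio of -0.49 [-0.63 to -0.36].

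The repressors E2f4, E2f5 and E2f6 had 758, 756 and 403 UMIs in the WT-labelled library and 505, 503 and 225 in the KO-labelled library. Their log2 ratios were 0.09 [-0.07 to 0.26], 0.09 [-0.08 to 0.25] and -0.16 [-0.41 to 0.07]. All 3 intervals held 0, and the sign of each turned under at least 1 other way of counting. Together they had 1917 and 1233 UMIs, for a log2 ratio of 0.04 [-0.06 to 0.14], and their share of all UMIs of the 10 members was 35.4% in the WT-labelled and 42.1% in the KO-labelled library.

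The atypical repressors were the members with the lowest ratios. E2f8 had 465 UMIs in the WT-labelled and 57 in the KO-labelled library, at 0.116 [0.106 to 0.127] and 0.0228 [0.0173 to 0.0296] per 10000. This was 5.10-fold lower, a log2 ratio of -2.35 [-2.77 to -1.95], and -2.51 relative to the median gene. The ratio of E2f8 stayed at -1.26 or below under all 7 other ways of counting. Its thinned values rested on few cells. In a separate random draw at 2000 UMIs, E2f8 was seen in 31 WT-labelled and 5 KO-labelled cells. E2f7 had 125 and 39 UMIs, at 0.0313 and 0.0156 per 10000, a log2 ratio of -1.004 [-1.56 to -0.47]. Its direction did not hold with cells thinned to 2000 UMIs, where the log2 ratio was 0.065, nor at 500 UMIs, where it was 0.92. In the separate draw at 2000 UMIs, E2f7 was seen in 7 and 6 cells. The share of E2f7 and E2f8 together among the UMIs of all members was 10.9% and 3.28%.

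The pocket proteins went opposite ways. Rb1, the retinoblastoma protein gene, had 872 and 736 UMIs, at 0.218 [0.204 to 0.233] in the WT-labelled and 0.295 [0.274 to 0.317] in the KO-labelled library, a log2 ratio of 0.43 [0.29 to 0.58]. Relative to the median gene it was 0.28 higher. Rbl1, which encodes p107 and whose promoter holds the match shown above, had 572 and 217 UMIs, at 0.143 and 0.0868 per 10000, a log2 ratio of -0.72 [-0.95 to -0.49]. The direction of Rb1 held under all 7 other ways of counting, and that of Rbl1 under 6, with 0.036 when every cell was weighted equally. With cells thinned to 2000 UMIs, however, Rb1 was at 0.16, below the median gene at 0.19. Rbl2, the remaining pocket protein gene, had 231 and 198 UMIs and a log2 ratio of 0.45 [0.17 to 0.73].

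Most UMIs of the members came from deep cells. In cells of 10000 UMIs or more (1828 and 688 cells), E2f8 had 450 and 47 UMIs, for a log2 ratio of -2.55 [-3.02 to -2.12]. In cells of 2000 to 10000 UMIs (291 and 233 cells) it had 7 UMIs in each library, at 0.0421 and 0.0680 per 10000, with an interval from -1.05 to 2.43. In cells under 2000 UMIs it had 8 and 3 UMIs. Rb1 had 833 and 688 UMIs in the deepest cells, a log2 ratio of 0.43 [0.28 to 0.58]. The markers of low-quality droplets (Gm42418, AY036118, Malat1 and Lars2) were at 70.3 and 119 UMIs per 10000. Their part in these results was not tested.

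Cells were grouped by marker genes. Clusters called stem-like held 1059 WT-labelled and 427 KO-labelled cells (41.3% and 23.6%), enterocyte-like 213 and 317 (8.31% and 17.5%), Paneth/goblet-like 190 and 184, and enteroendocrine-like 261 and 201. The 840 and 667 cells left over, whose medians were 2860 and 652 UMIs, went unnamed, and 15 KO-labelled cells were tuft-like. The unnamed class differed in make-up between the libraries. In the WT-labelled library, deep clusters led by Nupr1 and Sox4 (medians 17463.5 and 16858 UMIs) held 5333467 and 1546765 of its 7694056 UMIs. The unnamed KO-labelled clusters had medians of at most 3198.5 UMIs. The tuft-like cells had no counterpart in the WT-labelled library and at most 9 UMIs of any member, and levels are ordered over the other 5 classes. The clusters were built from the expression of the same cells, members included, so levels by class are descriptions.

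The stem-like cells were the main source of E2f8 and E2f1 UMIs. In the WT-labelled library, E2f8 was at 0.186 [0.169 to 0.205] per 10000 in stem-like, 0.0481 [0.0339 to 0.0663] in unnamed, 0.0311 [0.0134 to 0.0613] in enteroendocrine-like, 0.0095 in Paneth/goblet-like and 0.0113 in enterocyte-like cells. The stem-like level stood above the others, and neighbours in the rest of this order overlapped in their intervals. In the KO-labelled library, E2f8 was at 0.0452 [0.0325 to 0.0614] in stem-like, 0.0295 [0.0061 to 0.0863] in unnamed, 0.0198 [0.0073 to 0.0430] in Paneth/goblet-like and 0.0066 [0.0024 to 0.0143] in enterocyte-like cells, with 1 UMI in enteroendocrine-like cells. There the stem-like level overlapped those of the next 2 classes.

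Within stem-like cells, E2f8 and E2f2 were lower by more than 2-fold, Rbl1 and E2f1 were lower by less, and E2f4 was higher. E2f8 had 412 and 41 UMIs, for a log2 ratio of -2.04 [-2.54 to -1.58]. E2f2 was at 0.0901 and 0.0331 per 10000 (199 and 30 UMIs), a log2 ratio of -1.44 [-2.05 to -0.89]. These 2 of 10 members were lower by 2-fold or more, where 2.77% of 8154 genes were, and none was higher, where 3.64% were. E2f1 was at 0.185 and 0.121, a log2 ratio of -0.61 [-0.92 to -0.30], and Rbl1 at 0.205 and 0.129, a log2 ratio of -0.67 [-0.97 to -0.37]. E2f4 was at 0.238 and 0.287, a log2 ratio of 0.27 [0.05 to 0.49]. The intervals of E2f3, E2f5, E2f6, E2f7 and Rb1 held 0.

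These stem-like values depended on which clusters were counted. With 10 principal components (336 KO-labelled cells), both libraries clustered together (41 cells) or markers counted only from 2 times the mean level (33 cells), E2f1 was at a log2 ratio of 0.22, 0.91 and 0.88, and Rbl1 at 0.12, 0.46 and 0.89. E2f8 was at -0.99, -0.32 and 0.046 and E2f2 at -0.66, -0.45 and -0.39, so that neither was lower by 2-fold in these 3 settings. In the other 6 settings the ratios of these 4 genes lay within their main intervals.

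The libraries held stem-like clusters of different make-up. In the WT-labelled library a cluster of 281 cells led by Rrm2, Pclaf and Atad2 had 88.0% of its called cells in S phase, and the KO-labelled library had a similar cluster of 33 cells led by Pclaf, Hells and Hist1h1b, with 81.8%. Between these, E2f8 was at 0.380 [0.333 to 0.431] and 0.194 [0.123 to 0.291], which gave a log2 ratio of -0.97 [-1.65 to -0.35], and E2f2 at 0.165 and 0.0759, a log2 ratio of -1.12 [-2.29 to -0.14] from 104 and 9 UMIs. The ratios of E2f1 (0.22 [-0.22 to 0.64]), E2f7 (0.39 [-0.44 to 1.15]) and Rbl1 (0.22 [-0.29 to 0.70]) had intervals that held 0, as did those of the other 5 members. Of the 5 members with at least 200 UMIs in these clusters none was lower by 2-fold or more, where 1.68% of 3939 genes with as many UMIs were, and E2f2 was under that minimum.

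The largest KO-labelled stem-like cluster by UMIs was led by Ccnd1, Olfm4 and Lgr5 (180 cells), and 43.1% of its cells with a phase were called S. It had 2 UMIs of E2f8 in 6063919 UMIs, a level of 0.0033 [0.0004 to 0.0119], 1 UMI of E2f7 and 37 of E2f1 (0.0610 [0.0430 to 0.0841]). The WT-labelled cluster led by Olfm4, Aqp4 and Hes1 (351 cells), with 52.9% called S, had 33 UMIs of E2f8 at 0.0498 [0.0343 to 0.0699] and 99 of E2f1 at 0.149 [0.121 to 0.182]. The intervals of both genes did not overlap between these clusters, which were matched by their leading genes only. A smaller WT-labelled stem-like cluster, with Ccnd1 among its leading genes (92 cells, 43.5% called S), had 3 UMIs of E2f8 at 0.0172 [0.0036 to 0.0504], which overlapped the KO-labelled cluster, and 24 of E2f1 at 0.138 [0.0883 to 0.205], which did not. Mki67, a marker of cycling cells, was at 0.134 in the KO-labelled cluster and at 0.202 and 0.224 in the larger and smaller WT-labelled ones. In the clusters led by S phase genes it was at 1.14 (KO-labelled) and 1.52 (WT-labelled). Phases were called in each library alone, and whether cells called S in these clusters were replicating was not tested.

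**Figure D2:**
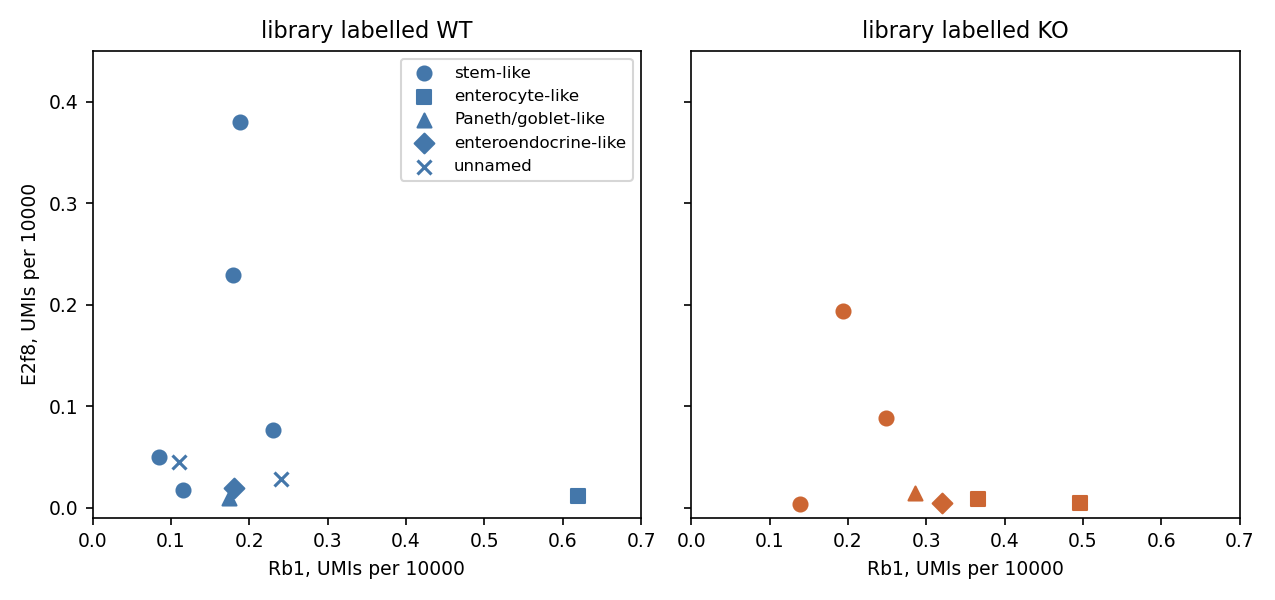
Each point is a cluster of at least 1000000 UMIs; x is the Rb1 level and y the E2f8 level in UMIs per 10000, symbols give the cell class, and the panels are the WT-labelled (10 clusters) and KO-labelled library (7 clusters). E2f8 was highest in stem-like clusters led by S phase genes (0.380 and 0.194) and Rb1 in enterocyte-like clusters (0.620 and 0.496).

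Rb1 was highest in enterocyte-like and lowest in stem-like cells of both libraries. In the WT-labelled library it was at 0.620 [0.549 to 0.698] in enterocyte-like, 0.201 [0.171 to 0.236] in unnamed, 0.190 [0.141 to 0.252] in enteroendocrine-like, 0.174 [0.131 to 0.226] in Paneth/goblet-like and 0.153 [0.138 to 0.171] in stem-like cells. The enterocyte-like level stood clear of the rest, whose neighbours overlapped. In the KO-labelled library it was at 0.430 [0.389 to 0.475] in enterocyte-like, 0.319 [0.253 to 0.398] in enteroendocrine-like, 0.287 [0.230 to 0.354] in Paneth/goblet-like, 0.207 [0.128 to 0.316] in unnamed and 0.168 [0.142 to 0.197] in stem-like cells. There each neighbouring pair overlapped.

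Between libraries, Rb1 was lower in the KO-labelled enterocyte-like cells, with 274 and 394 UMIs and a log2 ratio of -0.53 [-0.75 to -0.30]. It was higher in the Paneth/goblet-like cells, at 0.72 [0.22 to 1.24] from 55 and 87 UMIs, and in the enteroendocrine-like cells, at 0.75 [0.22 to 1.29] from 49 and 80 UMIs. In stem-like cells the log2 ratio was 0.13 [-0.16 to 0.41]. Enterocyte-like cells held 11.1% of the UMIs of the WT-labelled library and 36.6% of those of the KO-labelled library. When the WT-labelled level of each class was weighted by the KO-labelled share of UMIs, the log2 ratio of Rb1 over the 5 classes present in both went from 0.44 to -0.17, while that of E2f8 went from -2.34 to -1.77 and that of E2f1 from -0.90 to -0.55. Weighted by called phase instead, in cells of at least 5000 UMIs, Rb1 went from 0.43 to 0.32, E2f8 from -2.46 to -1.996 and E2f1 from -0.92 to -0.72. The 2 KO-labelled enterocyte-like clusters were at 0.496 [0.433 to 0.565] and 0.365 [0.312 to 0.425]. The second rested on 4 enterocyte markers and was led by Tmem237, S100g and Lgals3. Tmem237 also led a WT-labelled cluster of 306 cells that was left unnamed, with Rb1 at 0.240 [0.200 to 0.285]. With the first KO-labelled cluster alone, chosen after the data were seen, the log2 ratio of Rb1 was -0.32 [-0.58 to -0.06], and its level overlapped that of the WT-labelled cells.

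**Figure D3:**
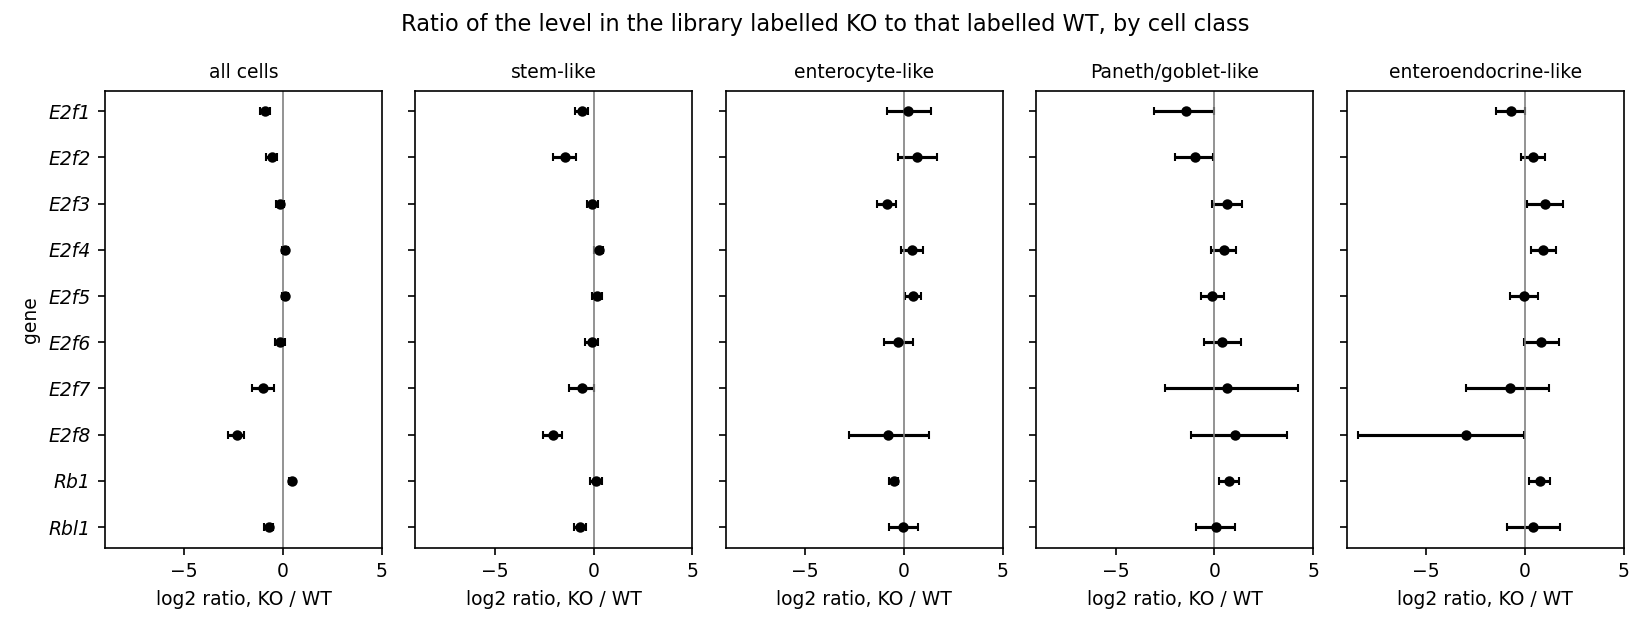
Log2 ratio of the KO-labelled to the WT-labelled level (x) of each gene (y) over all cells and in 4 marker-defined classes; bars are conditional binomial 95% intervals for counting error, and genes at 0 UMIs in 1 library are left out. E2f8 was at -2.35 over all cells and -2.04 in stem-like cells, and Rb1 was at -0.53 in enterocyte-like but 0.72 and 0.75 in Paneth/goblet-like and enteroendocrine-like cells.

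E2f2 was the member with its highest level in enteroendocrine-like cells. It was at 0.167 [0.121 to 0.225] there in the WT-labelled and 0.220 [0.165 to 0.286] in the KO-labelled library. The next classes were Paneth/goblet-like at 0.0980 [0.0666 to 0.139] and stem-like at 0.0901 in the WT-labelled library, and Paneth/goblet-like at 0.0494 and enterocyte-like at 0.0459 in the KO-labelled library. The enteroendocrine-like interval overlapped the Paneth/goblet-like one in the WT-labelled library and stood clear of the other classes only in the KO-labelled library. E2f1 was at 0.185 and 0.121 in stem-like and 0.171 and 0.104 in enteroendocrine-like cells, whose intervals overlapped in each library, and at 0.0249 and 0.0284 in enterocyte-like cells. Rbl1 was at 0.205 in WT-labelled stem-like cells and at 0.0832 or below in the other classes, and in the KO-labelled library the unnamed and stem-like cells were at 0.148 and 0.129 with overlapping intervals. E2f4 was lowest of these 5 classes in enterocyte-like cells of both libraries, at 0.0815 and 0.107. In the WT-labelled library that interval overlapped those of the Paneth/goblet-like and enteroendocrine-like cells. E2f5 ranged over these 5 classes from 0.148 to 0.231 in the WT-labelled and from 0.144 to 0.216 in the KO-labelled library. E2f6 was lowest in enterocyte-like cells as well, at 0.0588 and 0.0481. These intervals overlapped those of Paneth/goblet-like cells in both libraries, at 0.0601 and 0.0791. In the WT-labelled library the enteroendocrine-like and unnamed cells overlapped as well.

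The remaining ratios in differentiated classes rested on few UMIs. In enterocyte-like cells E2f3 was at 0.158 and 0.0863 per 10000 (70 and 79 UMIs), a log2 ratio of -0.88 [-1.36 to -0.39], and E2f5 at 0.156 and 0.216, a log2 ratio of 0.47 [0.07 to 0.89]. In enteroendocrine-like cells E2f3 was at 0.0661 and 0.132 (17 and 33 UMIs), a log2 ratio of 1.00 [0.11 to 1.93], and E2f4 at 0.136 and 0.259, a log2 ratio of 0.93 [0.32 to 1.57]. In Paneth/goblet-like cells E2f1 had 17 and 6 UMIs, for a log2 ratio of -1.44 [-3.07 to -0.03], and E2f2 31 and 15, a log2 ratio of -0.99 [-1.98 to -0.05]. The KO-labelled Paneth/goblet-like cells came from a deep and a shallow cluster, with median depths of 32390 and 948 UMIs, and the WT-labelled ones from 1 cluster with a median of 16396.

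The share of cells with a UMI of E2f8 was 26.6% [24.0 to 29.4] of WT-labelled and 6.32% [4.21 to 9.07] of KO-labelled stem-like cells. Their median depths were 21020 and 25135 UMIs, but the KO-labelled cells were split in depth. Of these 427 cells, 214 lay in a shallow cluster led by Cdc20, Cenpa and Hmmr (median depth 2382). The other KO-labelled stem-like clusters had median depths of 34654 and 37076. A depth of 2000 UMIs was reached by 325 of 427 KO-labelled and 1051 of 1059 WT-labelled stem-like cells. The class medians therefore do not make the KO-labelled stem-like cells the deeper set. In enterocyte-like cells the share with a UMI of E2f8 was 2.35% and 1.89%, at medians of 21761 and 34651 UMIs. All called cells of the WT-labelled enterocyte-like cluster were in G1. The first KO-labelled enterocyte-like cluster had 4.55% of called cells in S phase, and the second 17.4% in S and 3.31% in G2/M. With each cell thinned to 2000 UMIs, the stem-like shares were 2.57% [1.70 to 3.72] of 1051 cells and 0.923% [0.191 to 2.67] of 325 cells, with overlapping intervals. E2f8 was then seen in 0 of 204 and 0 of 267 enterocyte-like cells, which at that depth allows up to 1.47% and 1.12% of cells with a UMI (3 cells of the total) and sets no limit on the unthinned shares. Rb1 had a UMI in 64.8% and 56.2% of enterocyte-like cells, and in 9.31% and 9.36% after thinning.

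The members also differed by the called phase of the cell cycle, over sets that pooled all cell classes. Of the called cells, 100% in the WT-labelled enterocyte-like and 91.4% in the WT-labelled Paneth/goblet-like cluster were in G1. Differences between phases therefore include differences between classes, and the 2 were not separated. Phases were called in cells of at least 5000 UMIs from gene lists without the members, which gave 1067 G1, 538 S and 383 G2/M cells in the WT-labelled and 486, 170 and 102 in the KO-labelled library. In the WT-labelled library, E2f1 was higher in S than in G1 cells by 2.54 on the log2 scale, E2f7 by 3.83, E2f8 by 3.51 and Rbl1 by 2.09, while Rb1 was at -0.89. In G2/M cells E2f8 and Rbl1 stayed high, at 3.41 and 2.05 over G1, and E2f1 was at 0.02. In the KO-labelled library the S over G1 differences were 2.11, 2.29, 2.78, 1.37 and -0.99 for the same genes. E2f2 was higher in S than in G1 in the WT-labelled library, at 0.74 [0.38 to 1.11], and was at -0.63 [-1.36 to 0.03] in the KO-labelled library.

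Between libraries, the log2 ratios of E2f1, E2f2, E2f7 and E2f8 lay farthest below 0 in S cells, and differences between phases were not tested. E2f8 was at 0.213 [0.187 to 0.241] in WT-labelled and 0.0443 [0.0284 to 0.0658] in KO-labelled S cells, a log2 ratio of -2.26 [-2.93 to -1.66]. E2f7 was at 0.0680 and 0.0221, a log2 ratio of -1.62 [-2.63 to -0.73]. E2f2 was at -1.43 [-2.14 to -0.78], E2f1 at -0.96 [-1.31 to -0.62] and Rbl1 at -0.71 [-1.10 to -0.34], whereas E2f5 was at 0.40 [0.06 to 0.74]. Of the 8 members with at least 200 UMIs in S cells 1, E2f8, was lower by 2-fold or more, where 2.49% of 6512 genes with as many UMIs were, and E2f2 and E2f7 were under that minimum. In G2/M cells E2f8 was at -1.79 [-2.63 to -1.05] and Rbl1 at -0.78 [-1.34 to -0.26], while E2f7 was at 0.49 and E2f1 at 0.22 with intervals that held 0. In G1 cells E2f8 was at -1.53 [-2.71 to -0.48] from 35 and 10 UMIs and Rb1 at 0.34 [0.16 to 0.51]. Mki67, which marks cycling cells, was itself lower in the S cells of the KO-labelled library, at 0.798 and 0.151 UMIs per 10000. The part of the phase calls in these results was not tested.

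**Figure D4:**
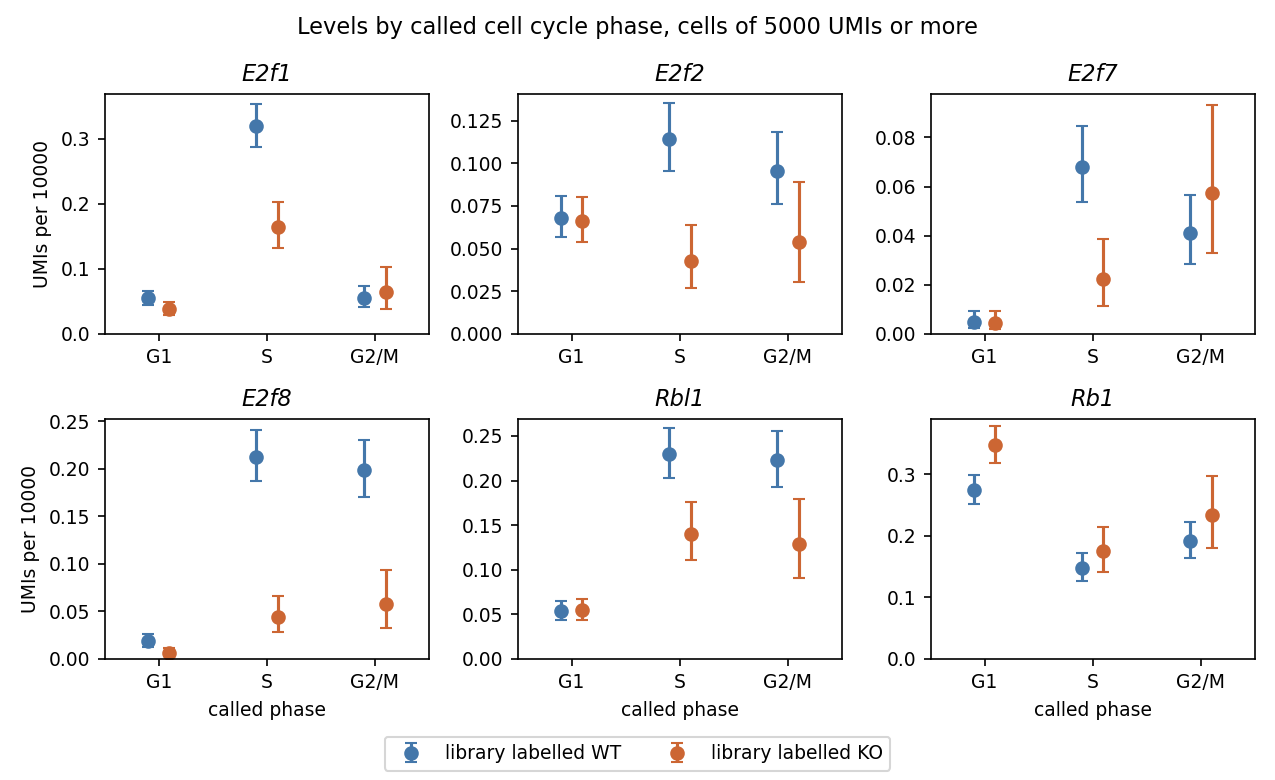
Level in UMIs per 10000 of 6 members in cells called G1, S and G2/M in the WT-labelled (blue) and KO-labelled (orange) library; bars are exact Poisson 95% intervals, and each panel has its own scale from 0. In S cells E2f8 was at 0.213 and 0.0443 and E2f1 at 0.319 and 0.164, and Rb1 was highest in G1 cells, at 0.275 and 0.347. Each phase pooled all cell classes.

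The downstream arm of the circuit was read from 20 genes of G1/S known as E2f targets. All 20 were lower in the KO-labelled library, where 3468 of 10002 genes were, and 12 were lower by 2-fold or more, against 3.48% of all genes. All 20 also lay below the median gene with their whole interval, a count that was not made for all genes. The median log2 ratio was -1.11. The lowest were Tk1, a thymidine kinase, at 0.456 and 0.0856 per 10000 (-2.41 [-2.62 to -2.21]), Uhrf1, which maintains DNA methylation at replication forks (-1.71 [-1.91 to -1.53]), and Mcm6, a subunit of the replicative helicase (-1.53 [-1.66 to -1.40]). The least lower were Cdc25a, a phosphatase that activates Cdk2 (-0.29 [-0.44 to -0.15]), Ccne1, cyclin E1 (-0.55 [-0.88 to -0.22]), and Orc1, a subunit of the origin recognition complex (-0.56 [-0.92 to -0.21]). The ratio of E2f8 was close to that of Tk1, and those of E2f1 and Rbl1 lay within the range of the list. In stem-like cells 19 of the 20 were lower, where 2552 of 8154 genes were, and 4 were lower by 2-fold or more, where 2.77% were. The median of the list there was -0.55, where the median gene was at 0.18. Between the 2 clusters led by S phase genes the median of the 19 tested was 0.17, with 5 of 19 lower, close to the median gene at 0.21, with 1092 of 3939 genes lower. E2f8 and E2f2 were lower there.

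The upstream arm was read from 21 partners and regulators. The median log2 ratio was -0.22, none was lower by 2-fold, and 3 were higher by 2-fold or more, against 5.52% of all genes. These were Cdkn1a, which encodes the Cdk inhibitor p21, at 1.94 and 6.17 per 10000 (1.67 [1.63 to 1.71]), Ccnd1, cyclin D1, at 0.462 and 1.35 (1.55 [1.47 to 1.63]), and Ccnd2, cyclin D2, at 2.66 and 5.61 (1.08 [1.04 to 1.11]). The lowest were Cdk2, the kinase that works with cyclin E (-0.83 [-1.07 to -0.60]), and Lin54 and Lin9, subunits of the MuvB core that joins E2f4 and the pocket proteins in the DREAM complex (-0.62 and -0.61). Tfdp1 and Tfdp2, which encode the dimer partners of E2f1 to E2f6, were at -0.52 and -0.58. Cdkn1a was higher in each named class, on the log2 scale by 2.62 in the stem-like, 1.17 in the Paneth/goblet-like, 0.70 in the enteroendocrine-like and 0.35 in the enterocyte-like cells. In the S cells in which E2f8 was at -2.26, Cdkn1a was at 0.703 and 4.17 per 10000, a log2 ratio of 2.57 [2.45 to 2.69].

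**Figure D5:**
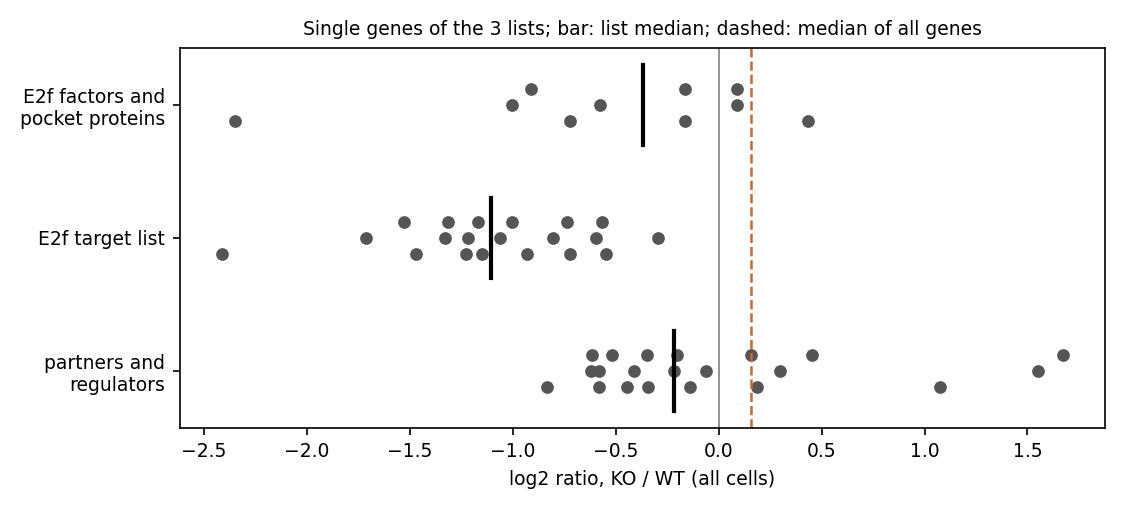
Log2 ratio of the KO-labelled to the WT-labelled level over all cells (x) for the 10 E2f and pocket protein genes, the 20 E2f targets and the 21 partners and regulators (rows, 1 point per gene, spread in height for sight only); black bars are list medians (-0.37, -1.11 and -0.22) and the dashed line is the median gene at 0.16. All targets lay left of 0, where 3468 of 10002 genes did, and 3 regulators lay beyond 1.

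The genes most like each member were sought by the Pearson correlation of log2(UMIs per 10000 + 0.01) over the 14 WT-labelled clusters, among genes with at least 1000 UMIs. Those most like E2f8 were Incenp, a subunit of the chromosomal passenger complex (r = 0.91), Hist1h1b, a linker histone (0.90), and Ube2t (0.88), and over the 14 KO-labelled clusters r was 0.80, 0.74 and 0.76. Those most like Rbl1 were Ndufaf2 (0.91), Mre11a (0.91) and Rbbp8 (0.91), with 0.85, 0.79 and -0.24 over KO-labelled clusters. For E2f1 they were Tssc4 (0.87), Gspt1 (0.85) and Cdt1, which licenses replication origins (0.84), with 0.53, 0.43 and 0.50. For E2f7 they were Syce2 (0.83), Pop7 (0.82) and Pola1, the catalytic subunit of DNA polymerase alpha (0.82), with 0.09, -0.36 and 0.78. For Rb1 they were Dnajb12 (0.95), Rhog (0.95) and Lpin2 (0.94), with -0.36, -0.14 and -0.01.

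For the remaining members, r over the KO-labelled clusters was below 0 for all the genes found except Ddx46, Nip7, Akap1 and Fastkd2. For E2f2 they were Mpp7, Maml3 and Poc1b (0.96, 0.95 and 0.95, with -0.29, -0.25 and -0.0041). For E2f3 they were Fhit, Apoo and Ndufaf1 (0.97, 0.97 and 0.97, with -0.73, -0.68 and -0.61). For E2f4 they were Ddx46, Nip7 and Akap1 (0.99, 0.99 and 0.98, with 0.59, 0.12 and 0.58), for E2f5 Rnf7, Gm9493 and Cnot8 (0.86, 0.83 and 0.80, with -0.22, -0.41 and -0.09), and for E2f6 Fastkd2, Dtd2 and Tmem126a (0.98, 0.96 and 0.96, with 0.51, -0.16 and -0.16). Clusters of 1 library share its depth, and genes at 0 in shallow clusters gain in likeness. Over the 10 WT-labelled and 7 KO-labelled clusters with at least 1000000 UMIs, a limit set after the data were seen, E2f8 and Incenp were at 0.90 and 0.97, Rb1 and Dnajb12 at 0.88 and 0.67, E2f4 and Ddx46 at 0.94 and 0.94, and E2f3 and Fhit at 0.72 and -0.30. Of the 11 correlations below 0 over all KO-labelled clusters for E2f2, E2f3, E2f5 and E2f6, 8 were above 0 over these deeper clusters, among them E2f6 with Dtd2 (0.82) and E2f3 with Ndufaf1 (0.72).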

How the data were processed

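Dissociated ileal enteroid cells of 2 libraries were profiled by droplet 3' RNA-seq. Per the submitters' processing notes and the study's methods, the authors used bcl2fastq 2.17.1.14 and Cell Ranger 3.1 (mm10; gene annotation not given in the sources used here), removed genes without counts, kept cells of 200 to 6000 genes with under 15% mitochondrial UMIs and clustered with Seurat 3.1.4. The deposited values are raw UMI counts per gene and cell.

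Here the counts of a gene in a set of cells were added up and given per 10000 of their total (Python 3.11.15, scipy 1.17.1), for all cells, clusters, classes and phases. Each library was clustered alone in Seurat 5.3.0 (R 4.3.3; LogNormalize, 2000 variable genes, 20 principal components, resolution 0.9). A cluster was named from at least 3 markers at 1.5 times the mean level or more. Scrublet (scanpy 1.11.5) predicted 10 doublets (0.390%) in the WT-labelled library and 0 in the other, so it separated few cells, and all were kept. Phases were called by Seurat from 42 S and 54 G2/M genes in cells thinned to 5000 UMIs. With 1 library per label no test was run. Called means a 2-fold difference. Interval code was tested on simulated data. Named genes were the members, Taf4, Mki67, Cdkn1a, the 3 highest and 3 lowest of each list (at least 200 UMIs), the 3 genes most like each member, and the genes that name clusters. Tfdp1, Tfdp2, Rbl2 and Epcam were added outside this rule after their values were seen. The members, lists and named-gene rule were chosen with earlier results of these data known. Other totals, depth limits, thinning, weights and clusterings were tried.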

Additional observations from a re-analysis of the deposited data

Results flagged for a closer look

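Rb1 and E2f3 stood out because their difference between the libraries had opposite signs in different cell classes, with intervals on either side of 0. Rb1 had a log2 ratio of KO-labelled to WT-labelled level of -0.53 in enterocyte-like cells, against 0.72 in Paneth/goblet-like and 0.75 in enteroendocrine-like cells. E2f3 was at -0.88 in enterocyte-like and 1.00 in enteroendocrine-like cells, the latter from 17 and 33 UMIs. These signs held in all 9 other settings of clustering, depth and total that were tried, with Rb1 in enterocyte-like cells between -0.56 and -0.32. The settings were not independent of the main analysis, since those of depth and total kept its clusters. With markers counted from 2 times the mean level, the Paneth/goblet-like and enteroendocrine-like cells were the same as before, so their values could not change. With 1 library per label the difference between classes was not tested.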

How the results depend on the processing

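No paired analysis was possible because each label had 1 library. No library could be left out for the same reason. Over all cells, 46 of 70 single-member ratios under other settings stayed within their main counting interval, and within named classes 326 of 351 did. The 18 class ratios that moved out of it and the 7 that turned sign were all in stem-like cells. In the other classes many intervals were wide, such as -8.43 to -0.06 for E2f8 in enteroendocrine-like cells, so staying within them says little about stability. The median log2 ratio of the 10 members moved from -0.37 to -0.084 with cells thinned to 2000 UMIs, to -0.032 with cells weighted equally, and to 0.091 over the 3 members with at least 1000 UMIs (E2f4, E2f5 and Rb1), where the sign turned because the members with low ratios had fewer UMIs. The count of members lower by 2-fold or more, 2 in the main analysis, was 1 in cells of at least 1000 genes, with thinning to 2000 UMIs and with equal weights, 0 among members with at least 1000 UMIs, and 3 with the total that leaves out mitochondrial and ribosomal protein UMIs and with thinning to 500 UMIs. The count of higher members stayed at 0 in all 8 settings. The target list, at -1.11, was at -1.29 without mitochondrial, ribosomal protein, Gm42418 and AY036118 UMIs in the total, a setting that moved the median gene from 0.16 to -0.03, at -0.81 and -0.47 with thinning to 2000 and 500 UMIs, and at -0.35 with equal weights. The partner list, at -0.22, was at -0.12, -0.0025 and 0.024 in these last 3 settings. E2f7 turned to 0.065 and 0.92 with thinning to 2000 and 500 UMIs, and Rbl1 to 0.036 with equal weights. In stem-like cells the median of the members, -0.34, was 0.21 with 10 principal components, 0.39 with joint clustering and 0.48 with markers counted from 2 times the mean, and E2f1 (0.22, 0.91 and 0.88) and Rbl1 (0.12, 0.46 and 0.89) turned in all 3 and E2f8 (0.046) in the last, while E2f8 (-0.99 and -0.32) and E2f2 (-0.66, -0.45 and -0.39) were no longer lower by 2-fold. The last 2 settings left 41 and 33 KO-labelled stem-like cells. The cause of the other moves was not tested. Precision is limited by the UMIs of the members in differentiated classes, of which E2f7 and E2f8 had at most 8 per class and library.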
